A study of Homo sapiens with 6 samples.

Results

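The genes described here are those of nuclear DNA that encode mitochondrial complex I and the proteins that build it. They were taken from the deposited gene table by their symbols: NDUF followed by A, B, C, S, V, AB or AF, a number and, where present, an L suffix. This gave 47 of 29435 genes in the table. Of these, 7 encode core subunits, 30 accessory subunits and 8 assembly factors, and the other two are NDUFA4 and NDUFA4L2, whose symbols match although NDUFA4 is now placed in complex IV. The cells, labelled as the human liver cancer line HepG2, had been exposed for 4 h to 20 µM saikosaponin A (SsA), a plant saponin, or for 4 h to DMSO, its solvent, before their RNA was sequenced. Each group had 3 libraries, and all 6 came from the same line under the same labelled culture conditions, with no genetic change stated. Whether the replicates were separate cultures is not stated, and the p-values may therefore reflect technical spread alone.

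Complex I, NADH:ubiquinone oxidoreductase, is where electrons from NADH enter the respiratory chain. It passes them over a flavin and a row of iron-sulphur clusters to ubiquinone and pumps protons across the inner mitochondrial membrane. The core subunits do the catalysis: those of the peripheral arm, which holds the flavin and the clusters, are encoded in the nucleus, and those of the membrane arm in mitochondrial DNA. Accessory subunits surround the core and are needed for its stability or assembly, and assembly factors help to put the enzyme together without staying in it.

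The libraries held 58955482 to 69567633 counts in SsA and 57768359 to 74912492 in DMSO. Genes encoded in mitochondrial DNA took 18.8, 7.62 and 8.28% of the counts in SsA replicates 1, 2 and 3, against 6.36, 6.19 and 14.9% in DMSO replicates 1, 2 and 3, so that SsA replicate 1 and DMSO replicate 3 stood apart from the other 4 libraries. The labels name no batch that would set them apart. CPM here and below are counts per 1e6 of a library size scaled by TMM, edgeR's trimmed mean of M-values. Of 9 hepatocyte markers, 6 had a row in the table, and all 6 (APOA1, FGA, FGB, FGG, HNF4A and TF) were below 0.1 FPKM on average. Their summed levels were 0.112 to 0.211 CPM in SsA and 0.0893 to 0.336 CPM in DMSO, which goes against a hepatocyte-like profile for the labelled line. Of 4 fibroblast markers, 3 had a row: COL1A1 averaged at least 1 FPKM, and DCN was below 0.1 FPKM. All 3 endothelial markers had a row, 0 averaged at least 1 FPKM, and PECAM1 and VWF were below 0.1 FPKM. Of 3 leukocyte markers only CD68 had a row. It averaged at least 1 FPKM, and the summed level of the leukocyte list is that of CD68 alone. The summed level of the fibroblast list was 34.5 to 51.2 CPM in SsA and 83.0 to 96.2 CPM in DMSO, that of the endothelial list 3.43 to 3.85 CPM in SsA and 5.78 to 6.18 CPM in DMSO, and that of the leukocyte list 2.22 to 8.05 CPM in SsA and 2.96 to 11.3 CPM in DMSO. Their part in the results was not tested.

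Most nuclear complex I transcripts were higher after SsA, by 1.20- to 2.20-fold where the difference passed the test. All 47 genes had at least 1 FPKM in all 6 libraries and were tested. With edgeR's quasi-likelihood test and Benjamini-Hochberg adjustment over 11427 tested genes (threshold 0.05), 41 rose, 0 fell and 6 did not pass, while 25.9% of all tested genes were higher and 27.9% lower. DESeq2 called 44 higher and 0 lower (29.2% and 30.0% of all genes it tested). At an unadjusted p below 0.05 edgeR's test put 44 higher and 0 lower. The share of all tested genes at an unadjusted p was not computed. Counts at an unadjusted p, here and below, therefore have no background and cannot be read against the adjusted shares. The median log2 fold change was 0.76 over the 47 genes and 0.027 over all tested genes. The levels of all 3 SsA libraries lay above those of all 3 DMSO libraries for 43 of the 47 genes, and for 30.4% of all tested genes. The exceptions were NDUFS1, NDUFB3, NDUFS4 and NDUFAF7. Changes in the number of cells and in RNA per cell cannot be told apart in RNA from whole cultures, and every level is relative to the other transcripts of its library.

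The calls depended on the scale on which they were tested. On log2(TPM + 1), computed from the deposited FPKM so that each library has the same total per length, limma called 0 of the 47 genes in either direction, and 1 was higher at an unadjusted p below 0.05. It called 0.429% of all tested genes higher and 21.4% lower. That scale put the median log2 fold change of all tested genes at -0.31 and that of the 47 genes at 0.39, a distance of 0.70, against 0.74 on the scale of counts. On log2(FPKM + 1) limma called 20 of the 47 higher and 0 lower (8.0% of all tested genes higher and 32.6% lower), with a median of 0.57 over the 47 genes and -0.11 over all tested genes.

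**Figure D1:**
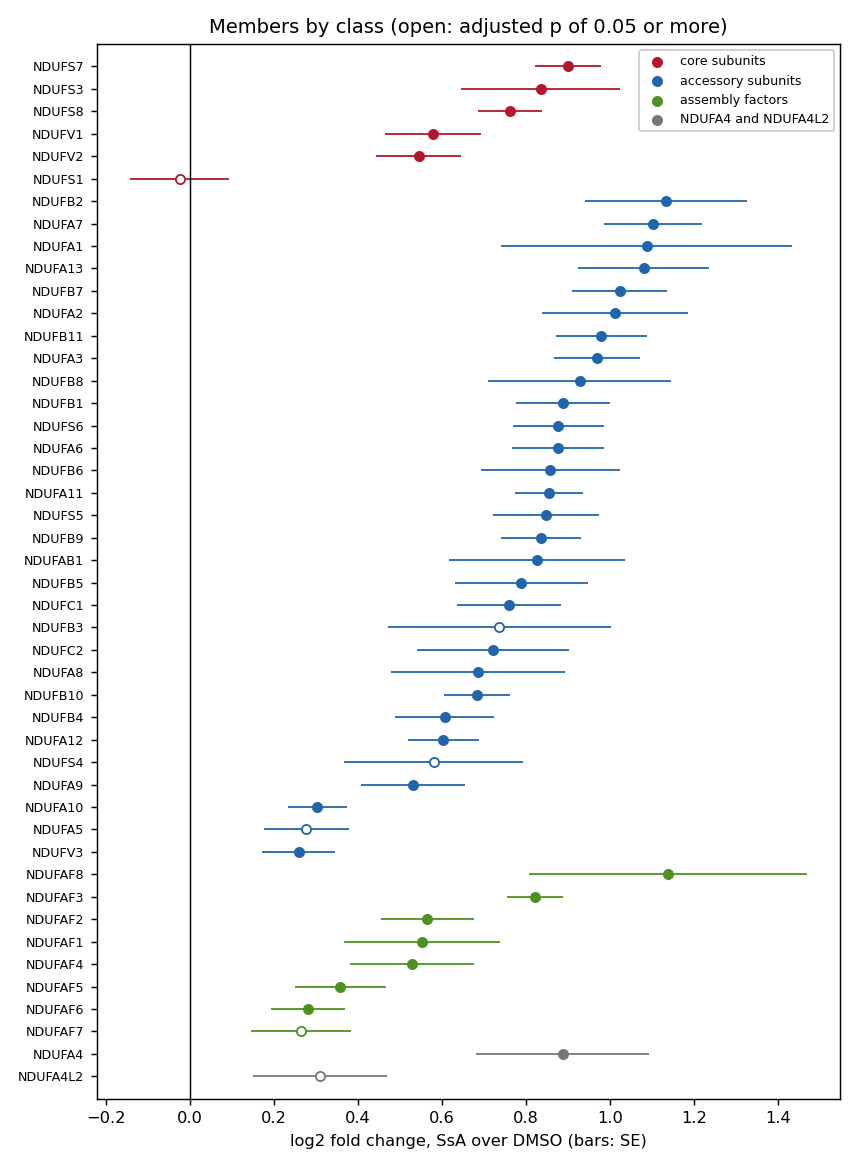
Log2 fold change by gene, SsA over DMSO, on the scale of counts (points; bars show the SE of edgeR's fit over 3 SsA and 3 DMSO libraries). Core subunits, accessory subunits, assembly factors, and NDUFA4 with NDUFA4L2 run from top to bottom, each sorted by size; filled points passed at an adjusted p below 0.05, open points did not, and all points but that of NDUFS1 lie right of 0.

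The median change was larger for accessory subunits than for the other classes, a difference that was not tested. Accessory subunits had a median log2 fold change of 0.84, core subunits of 0.58 and assembly factors of 0.54, where 27 of 30, 6 of 7 and 7 of 8 rose. Within the accessory class, the 13 genes of the NDUFA series and the 11 of the NDUFB series had medians of 0.86 and 0.86. Summed over the 37 subunits of complex I, the level was 3351, 4148 and 4298 CPM in SsA replicates 1, 2 and 3, against 2520, 2579 and 2093 CPM in DMSO replicates 1, 2 and 3. The lowest SsA library thus held more than the highest DMSO library.

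Of the core subunits, NDUFS7, NDUFS3 and NDUFS8, all of the module that passes electrons to ubiquinone, had the largest rises. NDUFS7 (ENSG00000115286, chr19:1383527-1395589, plus strand, build GRCh38) encodes the subunit with the last iron-sulphur cluster before ubiquinone. Its transcript had 39.9, 43.5 and 40.6 CPM in SsA replicates 1, 2 and 3, against 22.8, 23.2 and 20.5 CPM in DMSO replicates 1, 2 and 3. The groups did not overlap, and the spread within each was small. NDUFS7 rose 1.87-fold, by 0.90 ± 0.079 (log2, SE, edgeR adjusted p = 0.000237). NDUFS8, another cluster-bearing subunit of the same module, had 103, 109 and 116 CPM in SsA replicates 1, 2 and 3, against 64.1, 69.0 and 60.6 CPM in DMSO replicates 1, 2 and 3. It rose by 0.76 ± 0.076 (log2, SE, edgeR adjusted p = 0.000353), again with no overlap. NDUFS3, a subunit of the same module with no cluster, had 62.2, 86.0 and 89.8 CPM in SsA replicates 1, 2 and 3, against 46.6, 52.2 and 34.5 CPM in DMSO replicates 1, 2 and 3. Its SsA replicate 1 lay nearer to the DMSO libraries than the other SsA replicates did, and it rose by 0.84 ± 0.19 (log2, SE, edgeR adjusted p = 0.00925). NDUFS3 shares its strand and part of its span with PTPMT1, whose count was 117% of its own, so reads may have been split between them.

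NDUFV1 and NDUFV2 rose less, and NDUFS1 did not pass. NDUFV1, which binds the flavin where NADH is oxidised, had 121, 146 and 151 CPM in SsA replicates 1, 2 and 3, against 96.0, 102 and 82.1 CPM in DMSO replicates 1, 2 and 3. NDUFV2, its cluster-bearing partner, had 118, 134 and 142 CPM in SsA replicates 1, 2 and 3, against 95.1, 95.5 and 79.6 CPM in DMSO replicates 1, 2 and 3. Both rose, NDUFV1 by 0.58 ± 0.11 (log2, SE, edgeR adjusted p = 0.00528) and NDUFV2 by 0.55 ± 0.10 (log2, SE, edgeR adjusted p = 0.00402), and neither had overlapping groups. NDUFS1 (ENSG00000023228, chr2:206114817-206159444, minus strand, GRCh38) encodes the largest subunit of the peripheral arm and holds several of its clusters. Its transcript had 141, 173 and 173 CPM in SsA replicates 1, 2 and 3, against 172, 179.6 and 143 CPM in DMSO replicates 1, 2 and 3. The groups overlapped almost fully, SsA replicate 1 and DMSO replicate 3 being the lowest library of their groups, and the estimated difference was -0.023 ± 0.12 (log2, SE, edgeR adjusted p = 0.879). The 4 libraries with less mitochondrial RNA gave NDUFS1 a log2 fold change of -0.052.

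Accessory subunits included the transcripts with the largest rises among the subunits. NDUFB2 (ENSG00000090266, chr7:140690777-140722790, plus strand, GRCh38), a small subunit of the membrane arm, had 72.1, 102 and 107 CPM in SsA replicates 1, 2 and 3, against 46.9, 47.9 and 33.2 CPM in DMSO replicates 1, 2 and 3. It rose 2.19-fold, by 1.13 ± 0.19 (log2, SE, edgeR adjusted p = 0.00285). All SsA libraries lay well above all DMSO libraries, although SsA replicate 1 was the lowest of its group. NDUFA7, of the peripheral arm, had 39.9, 38.7 and 40.4 CPM in SsA replicates 1, 2 and 3, against 16.98, 21.8 and 16.6 CPM in DMSO replicates 1, 2 and 3. Its 3 SsA libraries were nearly equal, SsA replicate 1 included, and it rose 2.15-fold, by 1.10 ± 0.12 (log2, SE, edgeR adjusted p = 0.000438). NDUFA1, a small membrane-arm subunit encoded on the X chromosome, had 38.6, 76.9 and 81.6 CPM in SsA replicates 1, 2 and 3, against 36.1, 37.5 and 19.0 CPM in DMSO replicates 1, 2 and 3. Here SsA replicate 1 stood only just above DMSO replicates 1 and 2, and DMSO replicate 3 was far below them. NDUFA1 rose by 1.09 ± 0.35 (log2, SE, edgeR adjusted p = 0.0331), but it no longer passed when SsA replicate 2 or 3 or DMSO replicate 1 or 3 was left out (edgeR adjusted p = 0.0997, 0.105, 0.0596 and 0.0614). In the 4 libraries with less mitochondrial RNA the log2 fold change of NDUFA1 was 1.08. The row of NDUFB2 overlaps ADCK2 on its strand (19.8% of its count), and that of NDUFA7 overlaps an unnamed gene on its strand (17.1%).

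The smallest rises among the accessory subunits that passed were those of NDUFA9, NDUFA10 and NDUFV3. NDUFA9, which sits at the junction of the arms near the ubiquinone site, had 96.9, 124 and 124 CPM in SsA replicates 1, 2 and 3, against 81.5, 86.9 and 69.8 CPM in DMSO replicates 1, 2 and 3. NDUFA10, a membrane-arm subunit with the fold of a nucleoside kinase, had 93.0, 91.2 and 92.1 CPM in SsA replicates 1, 2 and 3, against 68.8, 75.6 and 79.5 CPM in DMSO replicates 1, 2 and 3. NDUFV3, a small subunit at the tip where NADH binds, had 48.7, 42.1 and 41.9 CPM in SsA replicates 1, 2 and 3, against 36.5, 35.0 and 39.4 CPM in DMSO replicates 1, 2 and 3. None of these groups overlapped, and in NDUFV3 the highest library was SsA replicate 1. NDUFA9 rose by 0.53 ± 0.12 (log2, SE, edgeR adjusted p = 0.0104), NDUFA10 by 0.30 ± 0.070 (edgeR adjusted p = 0.0101) and NDUFV3 by 0.26 ± 0.087 (edgeR adjusted p = 0.0406). The call of NDUFV3 was lost without any of the SsA replicates 1, 2 and 3 (edgeR adjusted p = 0.0874, 0.0649 and 0.0586) and without DMSO replicate 1 (0.124) or 2 (0.141).

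In the accessory class 3 genes did not pass, each just short of the threshold. NDUFA5, of the peripheral arm, had 64.2, 75.3 and 76.5 CPM in SsA replicates 1, 2 and 3, against 62.1, 63.3 and 52.8 CPM in DMSO replicates 1, 2 and 3. NDUFB3, of the membrane arm, had 31.1, 47.8 and 48.9 CPM in SsA replicates 1, 2 and 3, against 28.1, 31.7 and 16.7 CPM in DMSO replicates 1, 2 and 3. NDUFS4, a peripheral-arm subunit whose loss causes Leigh syndrome, had 17.4, 26.7 and 27.0 CPM in SsA replicates 1, 2 and 3, against 18.5, 16.7 and 12.2 CPM in DMSO replicates 1, 2 and 3. In NDUFB3 and NDUFS4, SsA replicate 1 lay inside the range of the DMSO libraries, whereas SsA replicates 2 and 3 lay above it, and in NDUFA5 the groups did not overlap. The log2 fold changes were 0.28 ± 0.10 for NDUFA5 (SE, edgeR adjusted p = 0.0536), 0.74 ± 0.26 for NDUFB3 (edgeR adjusted p = 0.0501) and 0.58 ± 0.21 for NDUFS4 (edgeR adjusted p = 0.0539). Without SsA replicate 1 all 3 passed, with log2 fold changes of 0.35, 0.92 and 0.76 (edgeR adjusted p = 0.0191, 0.0199 and 0.0109). The other 21 accessory subunits rose by 0.60 to 1.08 on the log2 scale (edgeR adjusted p from 0.000308 to 0.0272), from NDUFA12 at the low end to NDUFA13, also known as GRIM-19, at the high end. Among them were NDUFAB1, the mitochondrial acyl carrier protein (0.83 ± 0.21), and NDUFB8, a membrane-arm subunit widely used as an antibody marker of assembled complex I (0.93 ± 0.22). The calls of NDUFA8, NDUFAB1 and NDUFC2 were lost without SsA replicate 2 (edgeR adjusted p = 0.0857, 0.0533 and 0.0506), and those of NDUFA8 and NDUFAB1 also without SsA replicate 3 (0.0903 and 0.0525).

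Per length, on the deposited FPKM scale transcript levels of the subunits spanned a wide range. NDUFS5, a small subunit of the membrane arm, averaged 377 FPKM in SsA and 235 FPKM in DMSO and was the most abundant of the 47. NDUFB11, NDUFC2, NDUFS6 and NDUFB7 came next by the mean over 6 libraries, at 199, 136, 140.1 and 135 FPKM in SsA and 113, 92.7, 85.3 and 74.8 FPKM in DMSO. NDUFS7, with the largest rise in the core class, was the lowest of the 37 subunits at 4.50 FPKM in SsA and 2.70 FPKM in DMSO. Across the 47 genes FPKM fell with transcript length (Spearman correlation -0.54 with the mean over 6 libraries), and the points share the same libraries and a length that also enters the FPKM.

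Of the 8 assembly factors 7 rose, and 5 of these calls were lost when certain single libraries were left out. NDUFAF8 (ENSG00000224877, chr17:81239305-81241279, plus strand, GRCh38), the partner of NDUFAF5, had 16.8, 31.4 and 37.2 CPM in SsA replicates 1, 2 and 3, against 13.1, 16.7 and 8.89 CPM in DMSO replicates 1, 2 and 3. Its SsA replicate 1 stood barely above DMSO replicate 2, and SsA replicates 2 and 3 were far above all DMSO libraries. NDUFAF8 rose 2.20-fold, by 1.14 ± 0.33 (log2, SE, edgeR adjusted p = 0.0238), the largest log2 fold change of the 47 genes, but it no longer passed when SsA replicate 2 or 3 or DMSO replicate 1 or 3 was left out (edgeR adjusted p = 0.0727, 0.0813, 0.0664 and 0.0547). NDUFAF3 (chr3:49020459-49023495, plus strand), which acts early with NDUFAF4 on the module next to ubiquinone, had 65.8, 66.5 and 68.2 CPM in SsA replicates 1, 2 and 3, against 38.5, 39.4 and 35.5 CPM in DMSO replicates 1, 2 and 3. Its replicates differed little, and it rose 1.77-fold, by 0.82 ± 0.067 (log2, SE, edgeR adjusted p = 0.000189). NDUFAF2, a chaperone related to the subunit NDUFA12, had 28.0, 28.1 and 32.6 CPM in SsA replicates 1, 2 and 3, against 19.6, 18.03 and 22.4 CPM in DMSO replicates 1, 2 and 3. It rose by 0.57 ± 0.11 (log2, SE, edgeR adjusted p = 0.00496), with no overlap between groups. NDUFAF2 and NDUFAF3 were the only assembly factors of the 8 called whichever library was left out.

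The 4 other assembly factors that passed were called on narrow margins. NDUFAF4 had 15.5, 21.7 and 22.2 CPM in SsA replicates 1, 2 and 3, against 13.9, 14.1 and 13.2 CPM in DMSO replicates 1, 2 and 3. NDUFAF5, which hydroxylates an arginine of NDUFS7, had 15.9, 17.4 and 16.9 CPM in SsA replicates 1, 2 and 3, against 14.2, 13.2 and 11.6 CPM in DMSO replicates 1, 2 and 3. NDUFAF6, which takes part in building the membrane arm around ND1, had 19.1, 20.5 and 19.1 CPM in SsA replicates 1, 2 and 3, against 15.5, 17.3 and 15.6 CPM in DMSO replicates 1, 2 and 3. In each the groups did not overlap, with SsA replicate 1 the lowest of its group in NDUFAF4 and NDUFAF5. They rose by 0.53 ± 0.15, 0.36 ± 0.11 and 0.28 ± 0.088 (log2, SE, edgeR adjusted p = 0.0209, 0.0275 and 0.0312). NDUFAF1, which works on the membrane arm, rose by 0.55 ± 0.19 (edgeR adjusted p = 0.0396). Leaving out a library ended the call of NDUFAF1 in 5 of 6 cases (every library but SsA replicate 1, edgeR adjusted p up to 0.13), of NDUFAF4 in 3 (DMSO replicate 1, SsA replicates 2 and 3, up to 0.0775), of NDUFAF5 in 4 (DMSO replicates 2 and 3, SsA replicates 2 and 3, up to 0.0961) and of NDUFAF6 in 4 (DMSO replicates 1 and 3, SsA replicates 2 and 3, up to 0.112). NDUFAF7, an arginine methyltransferase, had 19.2, 21.7 and 22.5 CPM in SsA replicates 1, 2 and 3, against 17.7, 19.7 and 15.3 CPM in DMSO replicates 1, 2 and 3. Its groups overlapped, and the log2 fold change of 0.27 ± 0.12 did not pass (SE, edgeR adjusted p = 0.0986).

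Of the paralogues NDUFA4 and NDUFA4L2, which lie outside complex I, NDUFA4 rose and NDUFA4L2 did not pass; the difference between them was not tested. NDUFA4, a subunit associated with cytochrome c oxidase, had 153, 232 and 229 CPM in SsA replicates 1, 2 and 3, against 118, 129 and 84.6 CPM in DMSO replicates 1, 2 and 3. It rose 1.85-fold, by 0.89 ± 0.21 (log2, SE, edgeR adjusted p = 0.0103). NDUFA4L2, a gene induced by hypoxia, was low throughout, with 6.75, 5.80 and 6.67 CPM in SsA replicates 1, 2 and 3, against 5.79, 4.58 and 5.12 CPM in DMSO replicates 1, 2 and 3. Its log2 fold change of 0.31 ± 0.16 did not pass (SE, edgeR adjusted p = 0.138), although the groups did not overlap. SHMT2, on the opposite strand across NDUFA4L2, had 3590% of its count, and how strand was treated in counting is unknown here, so the values of NDUFA4L2 may hold reads of SHMT2.

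Promoter sequence was read for the 39 of 47 genes with a RefSeq window (GRCh38.p14) of 250 bases before to 50 after the start. For NDUFS3, NDUFV3, NDUFB2 and NDUFV1 the RefSeq start lies 13738, 13665, 5931 and 1283 bases from the 5′ end of the deposited row, and for the other 35 it lies at most 568 bases from it. Motifs of 7 letters were searched on both strands: GCATGCG for NRF1, CCGGAAG for ETS factors such as GABP, and ATGGCGG for YY1. NRF1, GABP and YY1 are known regulators of respiratory genes. ATGGCGG occurred in 17 windows (43.6%), against 5.55% of all windows and 10.4% of those of tested genes. GCATGCG occurred in 8 (20.5%, against 3.91% of all windows and 6.11% of those of tested genes), and CCGGAAG in 7 (17.9%, against 10.3% and 18.6%). GCATGCG contains the palindrome GCATGC, so its sense and antisense matches can overlap, and no motif contains another. A match describes the letters of the window and is no evidence of binding. ATGGCGG begins with the letters of a start codon, and how many of its matches are start codons was not tested. ATGGCGG lay on the transcribed strand within the first 50 bases after the start in 11 genes (28.2%, against 2.07% of all windows and 4.98% of those of tested genes). These 11 stretches of 30 bases, with ATGGCGG in capitals, are shown because this place near the start is where the 47 genes share a motif most often.
NDUFS3 (chr11:47579081-47579110, plus strand): atctgagtaacATGGCGGcggcggcggtag
NDUFS7 (chr19:1383916-1383945, plus strand): ccgaggccaagATGGCGGtgctgtcaggtg
NDUFA5 (chr7:123557777-123557806, minus strand): ttggcgctgtcATGGCGGgtgtgctgaaga
NDUFA6 (chr22:42090726-42090755, minus strand): gctttggcaagATGGCGGggagcggcgtcc
NDUFA9 (chr12:4649116-4649145, plus strand): tgtgggaaaagATGGCGGctgccgcacaat
NDUFA13 (chr19:19516228-19516257, plus strand): atactgcgagtATGGCGGcgtcaaaggtga
NDUFB8 (chr10:100529833-100529862, minus strand): agaaggtgaagATGGCGGtggccagggccg
NDUFB11 (chrX:47144661-47144690, minus strand): caccatctgtcATGGCGGctgggctgtttg
NDUFS4 (chr5:53560652-53560681, plus strand): cctgcagcaagATGGCGGcggtgtcaatgt
NDUFS6 (chr5:1801407-1801436, plus strand): agcggcgcaaaATGGCGGcggcgatgacct
NDUFAF8 (chr17:81239319-81239348, plus strand): acggacctaagATGGCGGcctccagggggc

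Genes with ATGGCGG near the start were among those of large and of small change: NDUFAF8, NDUFA13 and NDUFB11 had log2 fold changes of 1.14, 1.08 and 0.98, and NDUFA5, NDUFA9 and NDUFS4 of 0.28, 0.53 and 0.58. The 200 bases before the start are shown for 3 genes that differ in motif or in change, with motifs that lie wholly inside in capitals. NDUFS6, an accessory subunit of the peripheral arm that rose by 0.88 ± 0.11 (log2, SE, edgeR adjusted p = 0.000796), has GCATGCG 44 bases before the start and its antisense match 45 bases before it. NDUFB7, an accessory subunit of the membrane arm that rose by 1.02 ± 0.11 (edgeR adjusted p = 0.000530), has CCGGAAG 24 bases before the start. NDUFS1, which did not pass, has the antisense of CCGGAAG 157 bases before it.
NDUFS6 (chr5:1801207-1801406, plus strand): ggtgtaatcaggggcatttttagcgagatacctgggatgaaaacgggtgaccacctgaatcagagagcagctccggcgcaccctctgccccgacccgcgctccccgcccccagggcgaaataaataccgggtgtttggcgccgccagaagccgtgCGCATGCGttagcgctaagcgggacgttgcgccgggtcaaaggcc
NDUFB7 (chr19:14572067-14572266, minus strand): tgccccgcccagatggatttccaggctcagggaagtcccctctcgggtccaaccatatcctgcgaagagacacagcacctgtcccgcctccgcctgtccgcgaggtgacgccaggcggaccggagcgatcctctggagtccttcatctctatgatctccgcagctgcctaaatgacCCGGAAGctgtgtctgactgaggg
NDUFS1 (chr2:206159445-206159644, minus strand): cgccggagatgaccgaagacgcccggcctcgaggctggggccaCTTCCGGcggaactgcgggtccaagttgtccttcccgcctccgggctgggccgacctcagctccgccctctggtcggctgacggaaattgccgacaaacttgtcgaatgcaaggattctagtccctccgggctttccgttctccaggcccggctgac

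The libraries within a group differed in the level of these genes. Relative to the mean of the DMSO libraries, the median over the 47 genes was 0.48, 0.85 and 0.89 (log2) in SsA replicates 1, 2 and 3, against 0.064, 0.096 and -0.18 in DMSO replicates 1, 2 and 3. SsA replicate 1 was below the mean of the other SsA libraries in 41 of 47 genes, and DMSO replicate 3 below that of the other DMSO libraries in 42. Both are the libraries of high mitochondrial share. How many of all tested genes lay below those means was not computed. Across the 47 genes the deviations of these libraries from the rest of their groups had a Spearman correlation of 0.77 and a Pearson correlation of 0.82, as a description of points that share these libraries. SsA replicate 1 was above DMSO replicate 3 in 46 of 47 genes, by a median of 0.75 (log2). Of all tested genes, 50.0% were higher in SsA replicate 1 than in DMSO replicate 3, with a median of 0.0 (log2). The 4 other libraries gave a median of 0.76, and 43 of the 47 were higher there by edgeR's quasi-likelihood test (33.3% of all tested genes were higher). NDUFS1, NDUFAF6, NDUFAF7 and NDUFA4L2 did not pass in those 4. The libraries were set apart after their values were seen, which narrows the spread within the remaining groups, and the number of calls in the 4 is given with that limit. With a term for high mitochondrial share in the fit to all 6 libraries, 45 were higher and 0 lower (36.5% and 35.4% of all tested genes).

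**Figure D2:**
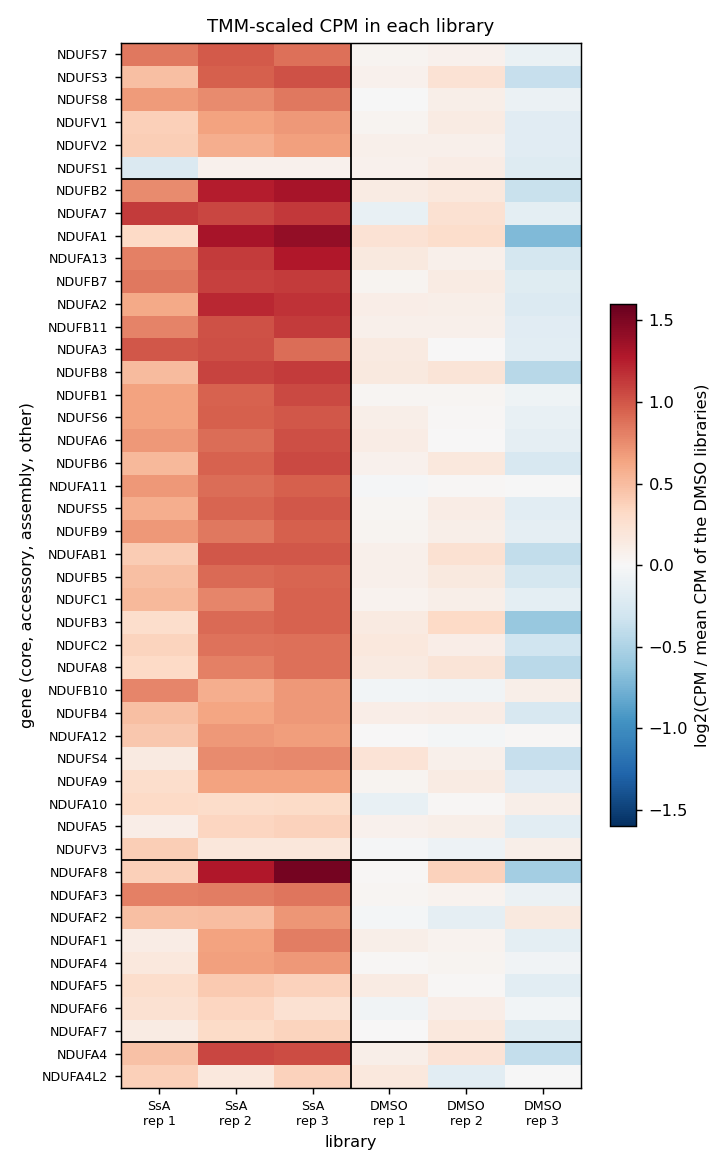
Level by gene in each library as log2 of its TMM-scaled CPM over the mean of the 3 DMSO libraries (colour; red is higher, blue lower), with SsA libraries left of the vertical line and DMSO libraries right of it, and horizontal lines between core subunits, accessory subunits, assembly factors, and NDUFA4 with NDUFA4L2. SsA replicate 1 is paler than SsA replicates 2 and 3 in most rows, with a median of 0.48 against 0.85 and 0.89, and DMSO replicate 3 is blue in most rows.

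Transcript length moved with the fold changes. The longest annotated transcript (GENCODE 29) had a median of 1388 nt over the 47 genes, 2528 nt in the core class, 1211 nt in the accessory class and 2205.5 nt among assembly factors, against 3348 nt over 11382 tested genes with a length. Longer transcripts had lower fold changes, with a Spearman correlation of -0.53 across the 47 genes and -0.64 across all tested genes, which are points from the same libraries. Of the 25 genes under 1500 nt, 22 rose, with a median log2 fold change of 0.86, while all tested genes of that length had a median of 0.57 and 49.6% of them were higher. Of the 13 genes from 1500 to below 3000 nt, 12 rose, with a median of 0.72, against 0.29 and 43.3% for all genes of that length. Of the 9 genes of 3000 nt or more, 7 rose, with a median of 0.36, against -0.24 and 10.4% for all genes of that length. NDUFS1, at 11819 nt the longest, is among those 9.

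A correction for length in the fit, which removes a lowess curve of each library's deviations against transcript length, moved these values. The median over the 47 genes became 0.40, and 23 rose and 0 fell (15.5% of all tested genes were higher and 15.3% lower). The order of the classes changed: the median was 0.42 in the core class with 4 of 7 higher, 0.41 in the accessory class with 17 of 30 higher, and 0.23 among assembly factors with 2 of 8 higher. NDUFS1 became 0.73 ± 0.14 (log2, SE, edgeR adjusted p = 0.00939), and NDUFA9, at 8363 nt the next longest, 1.11 ± 0.14 (edgeR adjusted p = 0.0019). The correlation with length across the 47 genes turned to 0.53 with the correction. The curve is set by all genes of a length, and what the length of a transcript stands for in these libraries was not tested. Among the genes that passed with and without the correction were NDUFS7 (0.96), NDUFS8 (0.69), NDUFB9 (0.70), NDUFA11 (0.61) and NDUFAF3 (0.47).

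**Figure D3:**
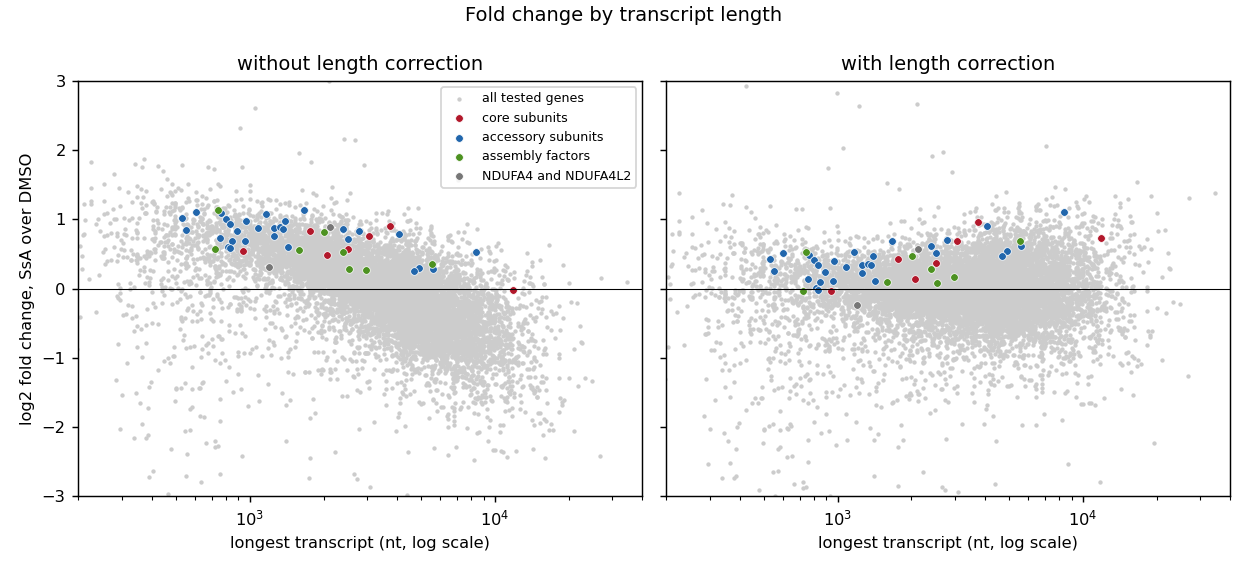
Log2 fold change, SsA over DMSO, against the length of the longest transcript (nt, log axis) for 11382 tested genes (grey) and the 47 genes by class (colours), without the length correction at left and with it at right; 135 genes lie outside the axes in either panel. The coloured points fall with length at left (Spearman correlation -0.53) and rise with it at right (0.53).

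The core subunits encoded in mitochondrial DNA, which complete the membrane arm, number 7. In all 6 libraries and without the length correction 0 of them passed by edgeR, with 1 higher and 2 lower at an unadjusted p below 0.05. DESeq2 also called 0, whereas limma called MT-ND5 and MT-ND6 lower on log2(TPM + 1) (limma adjusted p = 0.00829 and 0.00932) and on log2(FPKM + 1) (limma adjusted p = 0.0338 and 0.0375). With the length correction edgeR called MT-ND6 lower, at -1.99 (log2, edgeR adjusted p = 0.0498). Without SsA replicate 1 it called MT-ND5 and MT-ND6 lower (edgeR adjusted p = 0.00697 and 0.00647), and without DMSO replicate 3 it called MT-ND3 higher (0.0471). Leaving out either library keeps a high mitochondrial share in 1 group only. SsA replicate 1 and DMSO replicate 3 were the highest library of their groups for all 7. What sets these libraries apart is the summed level of mitochondrial transcripts, to which the 7 belong. Differences between libraries of like mitochondrial share are therefore given for these genes as descriptions, with no test. MT-ND5 had 2928, 870.1 and 866 CPM in SsA replicates 1, 2 and 3, against 3079.7, 2926 and 8061 CPM in DMSO replicates 1, 2 and 3. MT-ND6 had 766, 245 and 224 CPM in SsA replicates 1, 2 and 3, against 753, 735 and 1836 CPM in DMSO replicates 1, 2 and 3. In both, SsA replicates 2 and 3 were far below DMSO replicates 1 and 2, and SsA replicate 1 lay within the DMSO range. Over all 6 libraries neither passed without the length correction, with MT-ND5 at -1.59 ± 0.61 (log2, SE, edgeR adjusted p = 0.0606) and MT-ND6 at -1.43 ± 0.57 (edgeR adjusted p = 0.0708). SsA replicates 2 and 3 over DMSO replicates 1 and 2 gave log2 differences of -1.82 for MT-ND5 and -1.70 for MT-ND6, and SsA replicate 1 over DMSO replicate 3 gave -1.46 and -1.26.

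The other mitochondrially encoded subunits did not pass by edgeR over all 6 libraries either. MT-ND2 had 12198, 3624 and 4072 CPM in SsA replicates 1, 2 and 3, against 2836, 2602 and 7775 CPM in DMSO replicates 1, 2 and 3. MT-ND3 had 1392, 613 and 713 CPM in SsA replicates 1, 2 and 3, against 456, 396 and 684 CPM in DMSO replicates 1, 2 and 3. MT-ND4 had 37878, 11446 and 12608 CPM in SsA replicates 1, 2 and 3, against 8946, 8589 and 26561 CPM in DMSO replicates 1, 2 and 3. In all 3, SsA replicates 2 and 3 were above DMSO replicates 1 and 2, and SsA replicate 1 was above DMSO replicate 3. Over all 6 libraries MT-ND2 was at 0.59 ± 0.60, MT-ND3 at 0.82 ± 0.34 and MT-ND4 at 0.49 ± 0.61 (log2, SE, edgeR adjusted p = 0.429, 0.0774 and 0.521). The log2 differences were 0.47, 0.61 and 0.43 between the libraries of lower mitochondrial share, and 0.65, 1.02 and 0.51 for SsA replicate 1 over DMSO replicate 3. MT-ND1 had 7984, 2303 and 2558 CPM in SsA replicates 1, 2 and 3, against 2603, 2474 and 7666 CPM in DMSO replicates 1, 2 and 3. MT-ND4L had 8644, 1867 and 1990.5 CPM in SsA replicates 1, 2 and 3, against 2251, 2121 and 8072 CPM in DMSO replicates 1, 2 and 3. Both were at 0.012 ± 0.62 and 0.0066 ± 0.75 over all 6 libraries (log2, SE, edgeR adjusted p = 0.989 and 0.995), and their differences between libraries of like share were of unlike sign: the log2 differences were -0.089 for MT-ND1 and -0.21 for MT-ND4L between the libraries of lower share, and 0.059 and 0.099 for SsA replicate 1 over DMSO replicate 3. MT-ND6 is encoded on the strand opposite to MT-ND5, and reads of the strands cannot be told apart if the counting ignored strand.

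**Figure D4:**
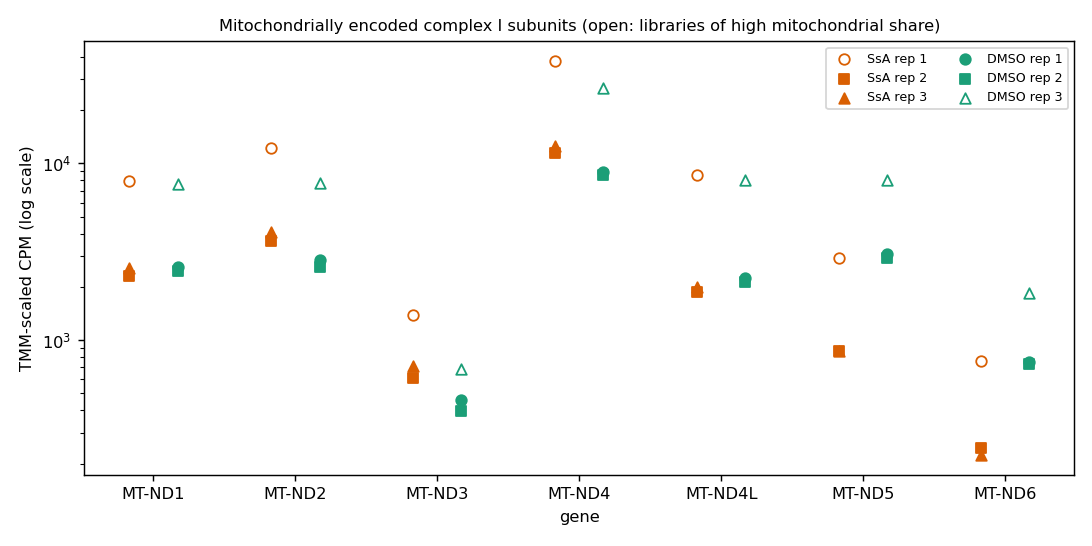
TMM-scaled CPM (log axis) of the 7 mitochondrially encoded complex I subunits in each SsA library (orange, left of each pair) and DMSO library (green, right); open symbols are SsA replicate 1 and DMSO replicate 3, the libraries of high mitochondrial share. MT-ND5 and MT-ND6 are lower in SsA among the filled and among the open symbols, while MT-ND2, MT-ND3 and MT-ND4 are higher in SsA in both.

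Other genes around complex I were taken from lists chosen for their role. Of 12 assembly factors with other names, 7 rose and 0 fell (10 higher and 0 lower at an unadjusted p below 0.05), with a median log2 fold change of 0.36, while 25.9% of all tested genes were higher. With the length correction 2 of the 12 were higher (15.5% of all tested genes), and limma on log2(TPM + 1) called 0. ECSIT, a member of the complex that assembles the membrane arm, had 40.9, 39.7 and 40.7 CPM in SsA replicates 1, 2 and 3, against 26.3, 26.1 and 28.7 CPM in DMSO replicates 1, 2 and 3, and rose by 0.58 ± 0.069 (log2, SE, edgeR adjusted p = 0.000671). DMAC1 and TMEM126B, which work on the same arm, rose by 0.77 ± 0.12 (edgeR adjusted p = 0.00195) and 0.63 ± 0.12 (edgeR adjusted p = 0.00423), and with the length correction ECSIT (0.15) and TMEM126B (0.13) no longer passed. NUBPL, which delivers iron-sulphur clusters, was at -0.077 ± 0.12 (edgeR adjusted p = 0.596). All 38 nuclear subunits of complexes II to V that were listed rose, with a median of 0.80, while 25.9% of all tested genes were higher. With the length correction 22 of the 38 were higher (15.5% of all tested genes), on log2(FPKM + 1) limma called 19 (8.0% of all tested genes), and on log2(TPM + 1) it called 0. COX6A1, of cytochrome c oxidase, rose by 0.99 ± 0.056 (edgeR adjusted p = 7.11e-05), and ATP5PO and ATP5ME, of ATP synthase, by 0.66 ± 0.055 (edgeR adjusted p = 0.000212) and 1.24 ± 0.11 (edgeR adjusted p = 0.000279). The median of the 37 complex I subunits, 0.83, was close to that of complexes II to V, and the difference was not tested.

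Of the regulators known for respiratory genes, PPRC1 fell with and without the length correction, and the calls of GABPA and YY1 depended on it. Of 9 listed, 8 were tested, of which 0 were higher and 3 lower by edgeR (1 higher and 3 lower at an unadjusted p below 0.05, and 1 higher and 3 lower by DESeq2), with a median of -0.19. The share lower, 3 of 8, lies near the 27.9% of all tested genes that were lower. PPRC1, a coactivator of the PGC-1 family, had 50.1, 33.9 and 34.6 CPM in SsA replicates 1, 2 and 3, against 91.9, 86.9 and 126 CPM in DMSO replicates 1, 2 and 3. It fell by 1.36 ± 0.20 (log2, SE, edgeR adjusted p = 0.00161), with no overlap between groups. GABPA, the DNA-binding subunit of GABP, fell by 0.37 ± 0.085 (edgeR adjusted p = 0.0102) and YY1 by 0.24 ± 0.053 (edgeR adjusted p = 0.00885). NRF1 was at -0.14 ± 0.084 (edgeR adjusted p = 0.196). With the length correction the median of the regulators was 0.025, and 2 were higher and 1 lower (15.5% and 15.3% of all tested genes). YY1 then turned to 0.22 (edgeR adjusted p = 0.0190) and GABPB1, the other subunit of GABP, passed at 0.39 (edgeR adjusted p = 0.00492), against 0.17 ± 0.067 without it (log2, SE, edgeR adjusted p = 0.0721). GABPA did not pass at -0.093 (edgeR adjusted p = 0.444), and PPRC1 stayed lower at -1.06 (edgeR adjusted p = 0.00592).

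Overlapping genes and near copies bear on some values. On the same strand, 4 of the 47 genes overlap a row with at least 5% of their count: NDUFS3, NDUFB2, NDUFA7 and NDUFC2, the last with the readthrough row NDUFC2-KCTD14 (5.64%). On the opposite strand, 12 overlap a row with at least 10% of their count, among them NDUFA7 with RPS28 (385%), NDUFA2 with IK (353%) and NDUFAF6 with CCNE2 (152%). The 20 other rows whose symbols begin with NDUF, most of them processed pseudogenes, held at most 2611 counts together in any library, and 728 without NDUFC2-KCTD14. How reads that fit both a gene and its pseudogene were assigned is unknown here.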

How the data were processed

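The deposited table gave, per the file headers, 1 whole-number count and 1 FPKM value per gene and library. No scaling of these counts by the authors was assumed, and the deposited FPKM had been scaled by the authors to gene length and library size. Columns marked SA were read as SsA. Per the labels' protocols, polyadenylated RNA was made into strand-marking dUTP libraries. The submitters' processing notes name GRCh38, StringTie 1.3.4d, HISAT2 2.0.4 and cutadapt 1.9. Their settings, the treatment of strand and the counting step are unknown here.

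Rows that reached 1 FPKM in 3 or more of the 6 libraries were tested, all libraries together, with edgeR 4.0.16 (TMM, quasi-likelihood, two-sided, Benjamini-Hochberg over 11427 genes, threshold 0.05). The SE is the log2 fold change over the square root of F. The biological coefficient of variation was 15.3%. Alternatives were RLE size factors, DESeq2 1.42.0, other filters, limma 3.58.1 on log2(FPKM + 1), log2(FPKM + 0.1) and log2(TPM + 1), mitochondrial rows left out of the scaling, leaving out libraries, a replicate block, a length correction (lowess, span 0.3) and, chosen after seeing the data, a term for high mitochondrial share. The edgeR fit was also run on simulated data. These had the same set spread for all genes and no split by mitochondrial share, so they do not check the calls made in these libraries. Lengths are of the longest GENCODE 29 transcript: 28679 rows matched by gene ID, 28649 of them on the same locus, and 47 of the 47 genes had a length. Promoter windows are from RefSeq (GRCh38.p14). Counting error is the only error that depth limits, and duplicates from PCR cannot be told apart without molecular identifiers.

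Full values in every library are given, in each class, for the 3 largest and the 3 smallest changes that passed, for every gene that did not pass, for NDUFA4 and NDUFA4L2, and for the mitochondrially encoded subunits. A gene of the set enters the counts and medians but is not reported here on its own. The genes, classes and lists were chosen with earlier results of these data known. R 4.3.3, Python 3.11.15 and matplotlib 3.10.9 were used.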

Additional observations from a re-analysis of the deposited data

How the results depend on the processing

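Under every alternative run 0 of the 47 genes were called lower, but the number called higher and the sign of some genes depended on the setting. On log2(TPM + 1), 0 were called in either direction, and 8 of the 47 log2 fold changes lay below 0. The cause was not tested. With RLE size factors, DESeq2, no expression filter, mitochondrial rows left out of the scaling and the term for high mitochondrial share, 41, 44, 41, 41 and 45 were higher. Of all tested genes, 2955 of 11427, 3334 of 11423, 2930 of 29435, 2901 of 11390 and 4173 of 11427 were higher in these settings. With a mean FPKM of at least 5, 32 of 42 tested were higher (assembly factors 3 of 5). Fewer genes, 6197, were tested there, of which 1666 were higher and 1762 lower. The median of the regulators was -0.35 in that setting. Leaving out 1 library gave 30 to 43 of the 47 genes, 5 to 6 core subunits, 22 to 29 accessory subunits and 2 to 7 assembly factors higher. Of all 11427 tested genes, 2005 to 3153 were higher when 1 library was left out. NDUFS1 was then at -0.14 to 0.070. It turned positive without SsA replicate 1 (0.070), DMSO replicate 1 (0.00428) and DMSO replicate 2 (0.037), and without the expression filter (0.033). On log2(FPKM + 1), 20 genes were higher (2 core, 16 accessory, 2 assembly; 914 of all tested genes), with medians of 0.57 over all 47, 0.39 core, 0.65 accessory, 0.31 assembly, 0.18 assembly factors with other names and 0.61 complexes II to V. On log2(FPKM + 0.1), 20 were higher (2, 16 and 2; 886 of all tested genes), with medians of 0.41 core, 0.67 accessory, 0.35 assembly, 0.20 other assembly factors, -0.35 regulators and 0.63 complexes II to V. On log2(TPM + 1), 0 were higher in each class (49 of all tested genes), with medians of 0.39 over all 47, 0.21 core, 0.47 accessory, 0.15 assembly, -0.000365 other assembly factors, -0.53 regulators and 0.43 complexes II to V; NDUFA10 (-0.056), NDUFA4L2 (-0.044), NDUFA5 (-0.082), NDUFAF5 (-0.00143), NDUFAF6 (-0.075), NDUFAF7 (-0.088) and NDUFV3 (-0.10) changed sign, none past the threshold, while the median of all tested genes was -0.31. With the length correction, 23 were higher (17 accessory, 2 assembly; 1768 of all tested genes higher and 1748 lower), with medians of 0.40 over all 47, 0.42 core, 0.41 accessory, 0.23 assembly, 0.14 other assembly factors, 0.025 regulators and 0.40 complexes II to V; NDUFS1 (0.73), NDUFA4L2 (-0.23), NDUFAF2 (-0.032), NDUFS4 (-0.015) and NDUFV2 (-0.036) changed sign. Same-numbered libraries deviated from their group means with correlations of -0.42, 0.37 and -0.44. SsA replicate 1 and DMSO replicate 3, the libraries of high mitochondrial share, carry different numbers and had a correlation of 0.631. With that difference in the values, they cannot tell whether same-numbered libraries came from paired cultures. With the replicate block, 33 were higher (2 assembly; 2074 of all tested genes higher and 2542 lower). With the block and the length correction, 15 were higher (3 core, 10 accessory, 2 assembly; 913 of all tested genes higher and 967 lower), with medians of 0.40 over all 47, 0.42 core, 0.40 accessory, 0.22 assembly, 0.14 other assembly factors, 0.041 regulators and 0.41 complexes II to V, and NDUFS1 at 0.73, NDUFA4L2 at -0.23, NDUFAF2 at -0.025, NDUFS4 at -0.014 and NDUFV2 at -0.035. Of the related lists, assembly factors with other names had 5 to 9 of 12 and complexes II to V 30 to 38 of 38 higher when 1 library was left out. The range over all 11427 tested genes was 2005 to 3153 higher. On log2(FPKM + 1), log2(FPKM + 0.1), log2(TPM + 1), with the length correction and with block and length correction, 3, 3, 0, 2 and 1 of the other assembly factors and 19, 18, 0, 22 and 16 of complexes II to V were higher; with the term for high mitochondrial share, 11 other assembly factors were. Of the 8 tested regulators, DESeq2 called 1 higher and 3 lower (29.2% and 30.0% of all genes it tested). Without both libraries of high mitochondrial share, 1 was higher and 4 lower (33.3% and 34.5% of all tested genes). The term for that share gave 2 higher and 4 lower (36.5% and 35.4%). With the length correction, 2 were higher and 1 lower (15.5% and 15.3%), and with the block too, 1 higher and 1 lower (913 and 967 of all tested genes). On log2(FPKM + 1), 0 were higher and 4 lower (8.0% and 32.6%). YY1 turned to 0.22 with the length correction, with or without the block, GABPB1 to -0.19 on log2(TPM + 1), and NUBPL to 0.18 with the length correction, 0.18 with the block too and 0.00273 without SsA replicate 1. MT-ND1 and MT-ND4L, near 0, turned negative: -0.10 and -0.11 with a mean FPKM of at least 5, -0.19 and -0.25 on both log2(FPKM) scales, -0.39 and -0.45 on log2(TPM + 1), -0.031 and -0.10 with the block, -0.022 and -0.087 with the term for mitochondrial share, -0.55 and -0.46 with the length correction, -0.61 and -0.63 with both, -0.089 and -0.21 without both libraries of high share, and -0.81 and -1.10 without SsA replicate 1, -0.23 and -0.27 without DMSO replicate 1, and -0.25 and -0.29 without DMSO replicate 2. MT-ND2 and MT-ND4 turned to -0.19 and -0.29 without SsA replicate 1 and -0.027 and -0.041 with block and length correction, and MT-ND4 to -0.0056 with the length correction. Without DMSO replicate 3 MT-ND1, MT-ND2, MT-ND4 and MT-ND4L were at 0.75, 1.28, 1.23 and 0.92.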
